A study of Zea mays with 4 samples.

Results

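The maize (Zea mays) response regulators and histidine-containing phosphotransfer proteins were followed in split roots after nitrate was given to one side of the root system. The set holds 45 probes of the 55547 distinct maize probes on a pair of spotted oligonucleotide array versions, 20 on version A and 25 on version B. A probe was taken when its deposited description named a response regulator or a histidine-containing phosphotransfer protein and its ID had 1 spot on 1 version only. The rule reads descriptions and spot counts and no expression value, and it was written with earlier results of these data known.

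Each array compared RNA of roots that had received 1 mM nitrate for 1 h, labelled with Cy3, with RNA of control half-roots, labelled with Cy5. The plants were 10 days old. They had been fed 0.5 mM nitrate for 6 days and kept without nitrogen for 2 days, and the nitrogen-free side carried 1 mM calcium chloride to balance calcium, so both groups had passed through nitrogen starvation. RNA came from the 15 cm nearest the tip, a mixture of many cell types in which fewer cells of a type cannot be told apart from less RNA per cell. The sources used here do not name the maize line, the number of plants in a sample, or whether both half-roots came from the same plants. There were 2 arrays per version, described as biological replicates, and all 4 have the same dye orientation, so a dye effect of a probe cannot be told apart from a nitrate effect. The file headers use the same RNA names for versions A and B of a replicate, so the 2 versions are not independent repeats of the treatment.

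In plants these proteins form a phosphorelay. Hybrid histidine kinases, among them the cytokinin receptors, pass a phosphate to histidine-containing phosphotransfer proteins, which carry it to response regulators in the nucleus. Type B response regulators are DNA-binding activators, and type A response regulators are mostly short proteins whose genes are induced quickly by cytokinin and which dampen the signal. In maize leaves the first type A genes were found through their induction by cytokinin and by nitrate resupply to nitrogen-starved plants. Pseudo-response regulators have a related receiver domain without the phosphate-accepting residue, and several belong to the circadian clock.

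By their descriptions the 45 probes comprise 3 phosphotransfer probes, 19 type A probes (response regulators Cip1, 4, 5, 6 and 7), 8 type B probes (response regulators 8, 9 and 10), 5 response regulator probes without a number, 8 pseudo-response regulator probes and 2 probes described as phosphate starvation response regulators. Types were assigned from the numbers in the descriptions. All 7 numbered names, from 4 to 10, occur as synonyms in the RefSeq gene table of maize B73, but this is a match of names only. A description gives the closest protein, so several probes of a name may detect 1 gene or close relatives. The phosphate starvation probes matched by their wording: the plant regulators of that name are MYB-type transcription factors and no part of the phosphorelay.

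Every one of the 45 probes exceeded the buffer and blank spots in both dyes on both arrays of its version, and all entered the test. The 95th percentile of those spots was at most 242.4, while the median maize probe read 1572.5 to 1939 with nitrate and 1438 to 1960 in control roots. Precision is limited by having 2 arrays per probe. Among all tested probes the log2 ratios of the 2 arrays correlated across probes at r = 0.29 on version A (28374 probes) and 0.27 on version B (24748 probes), and among the members at 0.33 (20 probes) and 0.38 (25 probes). These are descriptions, since probes of an array share its dyes and RNA. The tissue label could not be checked by detection alone. Spots of the 16 probes caught by the root pattern exceeded the blanks in 100% of cases in both dyes. Of these, 3 are DNA repair proteins caught by their letters alone, and 13 name root-specific proteins, root isozymes or nicotianamine synthase. Spots of 64 probes caught by the leaf pattern did so in 95.3% (nitrate) and 97.7% (control), and those of 308 zein (seed storage) probes in 73.3% and 69.9%.

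No member passed limma's test at an adjusted p of 0.05 (Benjamini-Hochberg over all probes of a version) on either version, where 0.0% of all tested probes of version A and 0.0525% of version B did. The smallest adjusted p among members was 0.266 on version A and 0.147 on version B. Without adjustment, a limma p under 0.05 was reached by 4 of 20 members with a higher ratio on version A, against 7.55% of all probes, and by 2 with a lower ratio, against 4.49%. On version B it was reached by 7 of 25 members with a higher ratio, against 7.64% of all probes, and by 0 with a lower ratio, against 5.29%. Of these 11 higher probes 6 were type A, 1 type B, 2 unnumbered and 2 phosphate starvation regulators.

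The members more often had ratios above 0 than all probes did, with no test of that difference. The log2 ratio of nitrate over control was above 0 on both arrays for 10 of 20 members on version A, against 30.4% of all probes, and for 16 of 25 on version B, against 29.7%. It was below 0 on both arrays for 5 members on version A, against 30.1%, and for 4 on version B, against 30.6%. No member was at least 2-fold different the same way on both arrays; the shares of all probes were 0.719% on version A and 0.647% on version B. The median of the mean log2 ratios was 0.26 over the members and 0.0038 over all probes of version A, and 0.28 over the members and -0.0036 over all probes of version B. The version B values depend on the normalization. With each array centred on its median in place of loess, the members' median on version B was -0.03, against -0.04 over all its probes. There 10 members were above and 9 below 0 on both arrays, and the shares of all probes were not computed under this centring. Without the saturated probe MZ00042045, 15 of 24 were above 0 on both arrays after loess. On version A without replicate 2 the members' median was 0.01.

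**Figure D1:**
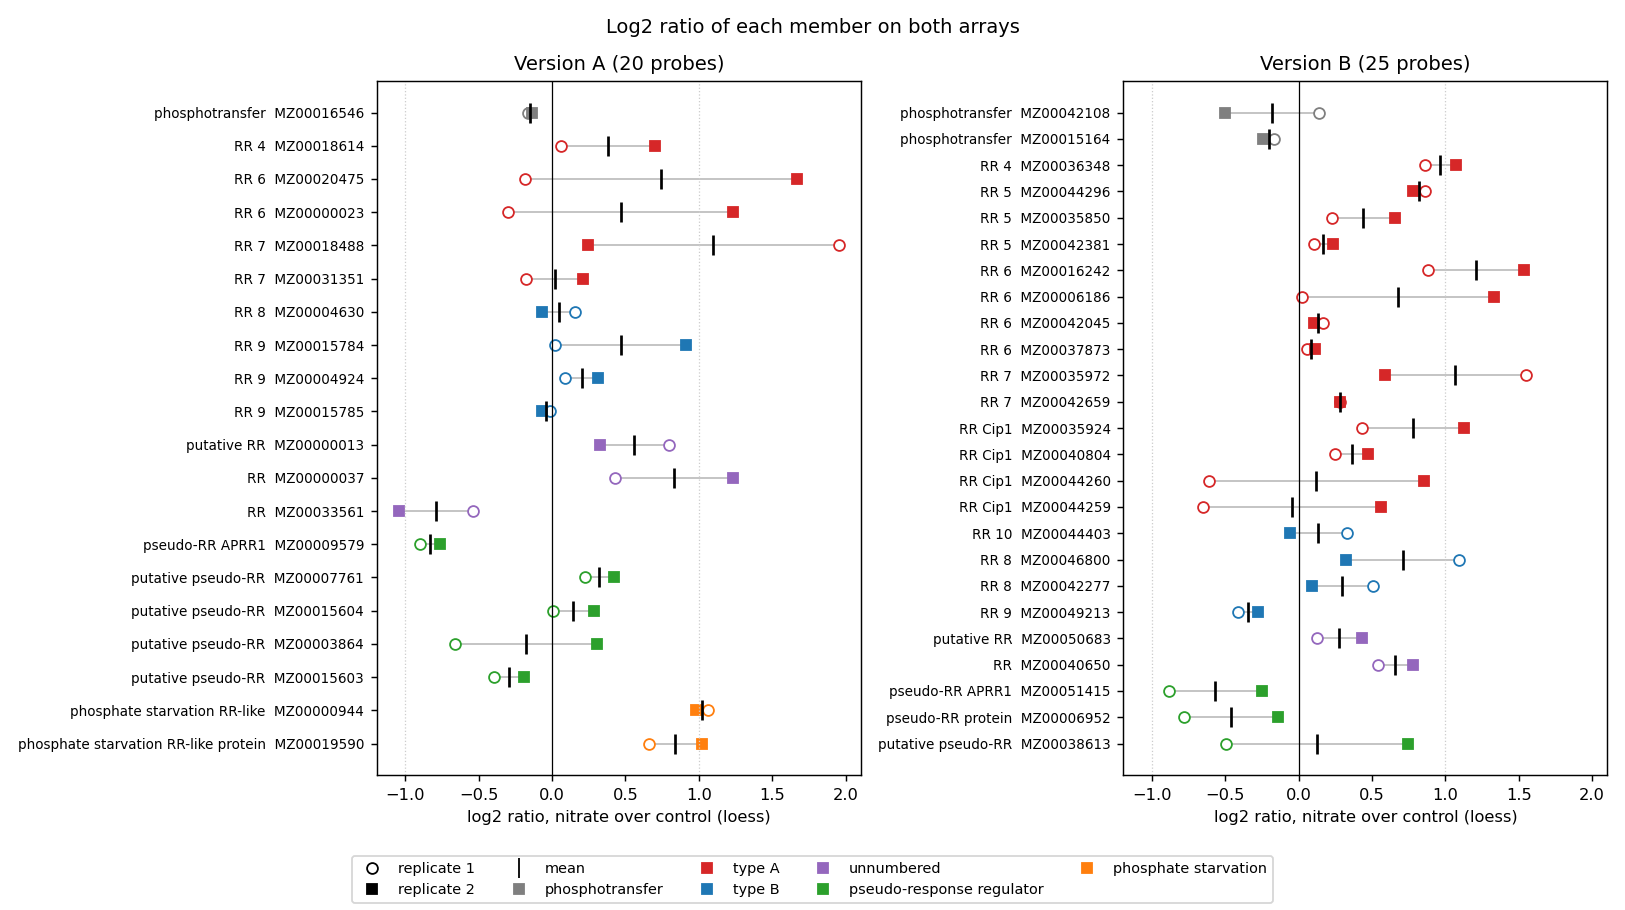
Log2 ratio of nitrate over control after loess for each of the 20 version A probes (left) and 25 version B probes (right), with replicate 1 as open circles, replicate 2 as squares and the mean as a black bar. Dotted lines mark 2-fold. Most type A probes lie right of 0, with wide gaps between the replicates for several of them, and both APRR1 probes lie left of it. The phosphotransfer probes average -0.20 to -0.15 here and -0.61 to -0.40 with median centring.

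The phosphotransfer proteins, which carry the phosphate between kinase and response regulator, had mean log2 ratios from -0.20 to -0.15 after loess. With median centring they were lower, at -0.48 (MZ00016546), -0.61 (MZ00015164) and -0.40 (MZ00042108). MZ00016546 on version A had intensities of 20645 and 9532 with nitrate, against 30643 and 11757 in control roots, in replicates 1 and 2. The control channel was the brighter on each array, but after loess the log2 ratio was -0.15 ± 0.02 (SD, n = 2; limma adjusted p = 0.808). On version B, MZ00015164 had 18078 and 30241 with nitrate, against 27736 and 37382 in control roots,, and its log2 ratio was -0.20 ± 0.06 (limma adjusted p = 0.756). MZ00042108, whose closest protein is the same as that of MZ00016546, had -0.18 ± 0.45 with opposite signs on the 2 arrays. Limma's 95% confidence intervals of the 3 probes reach from -0.76 at the lowest to 0.40 at the highest.

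Type A probes had a median log2 ratio of 0.44 over 19 probes. Of these, 14 were above 0 on both arrays, 5 had opposite signs and 0 were below 0 on both. Above 0 on both were 2 of 5 on version A, against 30.4% of all probes, and 12 of 14 on version B, against 29.7%. The shares of all probes below 0 on both were 30.1% and 30.6%. The type A counts also depend on the scaling. With median centring 10 were above and 4 below 0 on both arrays, at a median of 0.51. With the deposited ratios 12 were above and 0 below, at 0.56. Shares of all probes were computed after loess only. On version B, which holds 14 of the 19, the median was 0.40 after loess but 0.18 with median centring, and on version A it was 0.47 after loess and 0.67 with median centring. Without the saturated probe MZ00042045, 13 of 18 were above 0 on both arrays after loess. The median over type A probes was 0.16 in replicate 1 and 0.66 in replicate 2. Over all 45 members it was 0.10 and 0.33. The share of all probes with a higher ratio in replicate 2 was not computed. Whether type A probes differ from the other members was not tested, since each version has 2 arrays.

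Response regulator 6 had the highest mean log2 ratio of the members after loess on 1 of its 6 probes, although MZ00018488 of response regulator 7 exceeded it with print-tip loess, median centring and the deposited ratio. MZ00016242 on version B had intensities of 10552 and 15836 with nitrate, against 7408 and 5036 in control roots. Nitrate was the brighter dye on each array, as on 42.8% and 72.8% of all maize probe spots of version B in replicates 1 and 2. Its log2 ratio was 0.88 in replicate 1 and 1.53 in replicate 2, or 1.21 ± 0.46 (SD, n = 2; limma adjusted p = 0.147), with a 95% confidence interval from 0.63 to 1.79, and it was 0.91 with median centring. MZ00006186 had 1001 and 2661 with nitrate, against 914 and 723 in control roots, and log2 ratios of 0.02 and 1.33. MZ00000023 and MZ00020475 on version A gave -0.30 and -0.18 in replicate 1 but 1.23 and 1.67 in replicate 2. These 4 probes were thus all higher in replicate 2 than in replicate 1, as was the median over all type A probes. The ratio of MZ00020475 in replicate 2 rests on 786 with nitrate, against 121 in control roots, and that of MZ00000023 on 709, against 174, which are low intensities for these arrays.

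The brightest response regulator 6 probes were MZ00037873 and MZ00042045, and saturation limits what the second can show. MZ00037873 had 14074 and 23943 with nitrate, against 18424 and 22645 in control roots, at a log2 ratio of 0.09 ± 0.04 (SD, n = 2), which was -0.31 with median centring. MZ00042045 was saturated in the control channel on both arrays and in the nitrate channel on 1, with 63633 and 63271 with nitrate, against 73945 and 63434 in control roots, so no fold is given for it. Contigs named for these 6 probes are all different, and whether they come from 1 gene was not tested.

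Of 4 response regulator 7 probes, 2 were higher in replicate 1 than in replicate 2. MZ00018488 on version A had 5120 and 5015 with nitrate, against 1363 and 4252 in control roots. The nitrate values are nearly equal and the control values differ. Its log2 ratio was 1.95 in replicate 1 and 0.24 in replicate 2, or 1.10 ± 1.21 (SD, n = 2; limma adjusted p = 0.384). MZ00035972 on version B, named for the same genomic sequence, had 10060 and 14751 with nitrate, against 4266 and 9445 in control roots. Here both dyes read higher in replicate 2. The log2 ratio was again higher in replicate 1, with 1.55 and 0.59, or 1.07 ± 0.68 (limma adjusted p = 0.198). The other response regulator 7 probes had smaller ratios. MZ00042659 had 52181 and 40462 with nitrate, against 56377 and 34892 in control roots, at a log2 ratio of 0.28 on both arrays, which turned to -0.10 with median centring. MZ00031351 had -0.18 and 0.21.

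Response regulators 4 and 5 included probes whose ratios were alike in both replicates. For response regulator 4, MZ00036348 had 8148 and 15210 with nitrate, against 5666 and 6808 in control roots. The log2 ratio was 0.86 in replicate 1 and 1.07 in replicate 2, or 0.97 ± 0.15 (SD, n = 2; limma adjusted p = 0.177), and it was 0.68 with median centring. The dimmer probe of this name, MZ00018614 on version A, had log2 ratios of 0.06 and 0.70. For response regulator 5, MZ00044296 had 8410 and 13124 with nitrate, against 5861 and 7151 in control roots. Its log2 ratio was 0.82 ± 0.06 (limma adjusted p = 0.218), and 0.54 with median centring. MZ00035850 had 0.44 ± 0.30 and MZ00042381 had 0.17 ± 0.09, which were 0.29 and -0.14 with median centring. All 3 were above 0 on both arrays after loess, as were 29.7% of all version B probes.

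Cip1 was covered by 4 probes on version B that differed among themselves. MZ00035924 had 5456 and 12387 with nitrate, against 4993 and 5162 in control roots, and its mean log2 ratio was 0.78 ± 0.49 (SD, n = 2), with a limma adjusted p of 0.279. MZ00040804, the brightest, had 50121 and 55197 with nitrate, against 55427 and 42222 in control roots. Nitrate was the dimmer dye in replicate 1 and the brighter in replicate 2, and the mean log2 ratio was 0.36 ± 0.16, or -0.03 with median centring. MZ00044259 and MZ00044260, which list a match to the same contig, had nitrate intensities below control in replicate 1 and above it in replicate 2. MZ00044259 had 1777 and 5215 with nitrate, against 3264 and 2980 in control roots, and log2 ratios of -0.65 and 0.56. MZ00044260 had 1558 and 3940 with nitrate, against 2724 and 1723 in control roots, and log2 ratios of -0.61 and 0.85. The 4 probes were all higher in replicate 2, as was the median over all type A probes.

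**Figure D2:**
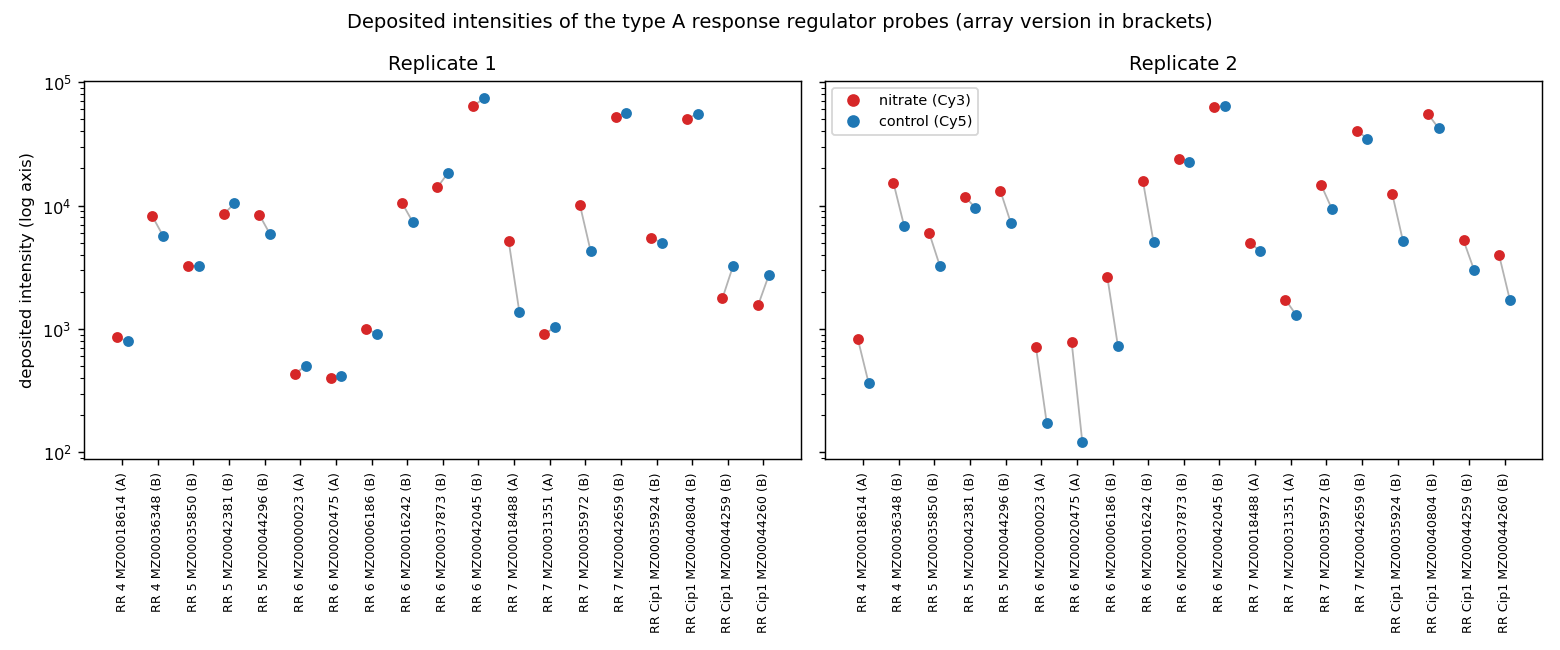
Deposited intensities (log axis) of the 19 type A probes in replicate 1 (left) and replicate 2 (right), nitrate (Cy3, red) beside control (Cy5, blue), before normalization. In replicate 2 the nitrate value lies above the control value for every probe except the saturated MZ00042045, but nitrate was also the brighter dye on 59.1% of all maize probe spots of version A and 72.8% of version B there. In replicate 1 it was brighter for 2 of 5 type A probes on version A, where the share of all spots was 45.6%, and for 7 of 14 on version B, where it was 42.8%.

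Type B probes had a median log2 ratio of 0.17, with 4 of 8 above 0 on both arrays and 2 below 0 on both. On each version 2 of 4 were above, against 30.4% (version A) and 29.7% (version B) of all probes. On each version 1 of 4 was below, against 30.1% and 30.6%. Type B factors bind DNA and activate cytokinin response genes. The highest was MZ00046800, described as response regulator 8, with 3134 and 6159 with nitrate, against 1551 and 4284 in control roots. Its log2 ratio was 1.10 in replicate 1 and 0.33 in replicate 2, or 0.71 ± 0.54 (SD, n = 2; limma adjusted p = 0.323). The other response regulator 8 probes, MZ00042277 on version B with 0.30 ± 0.29 and MZ00004630 on version A with 0.05 ± 0.16, list the same maize sequences as matches and were both closer to 0, with MZ00042277 at -0.07 with median centring.

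Response regulator 9 was covered by 4 probes with mean log2 ratios from -0.34 (MZ00049213) to 0.47 (MZ00015784). MZ00015784 had 2189 and 6730 with nitrate, against 2343 and 3576 in control roots, and log2 ratios of 0.02 and 0.92. MZ00015785, from another contig under the same name, had -0.04 ± 0.04 (SD, n = 2), and MZ00004924, the dimmest member, had 149 and 214 with nitrate, against 89 and 84 in control roots, with 0.20 ± 0.16. With median centring MZ00049213 was at -0.03 and MZ00004924 at 0.57. Response regulator 10 (MZ00044403) had 11302 and 12266 with nitrate, against 11986 and 12421 in control roots, and 0.13 ± 0.28, or -0.20 with median centring.

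The 5 probes without a number were apart in direction. MZ00000037 on version A and MZ00040650 on version B share their closest protein with MZ00033561, yet the first 2 were high and the third was low. MZ00000037 had 5624 and 9642 with nitrate, against 4867 and 4247 in control roots, and its log2 ratio averaged 0.83 ± 0.57 (SD, n = 2; limma adjusted p = 0.354). MZ00040650 had 2576 and 5529 with nitrate, against 1928 and 2690 in control roots, at 0.66 ± 0.17 (limma adjusted p = 0.31). MZ00033561 had 726 and 159 with nitrate, against 1087 and 296 in control roots, at -0.79 ± 0.36 (limma adjusted p = 0.34). The probes described as a putative response regulator of rice, MZ00000013 on version A and MZ00050683 on version B, list the same maize sequence and had 0.56 ± 0.33 and 0.28 ± 0.21.

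Pseudo-response regulators had a median log2 ratio of -0.23 over 8 probes, of which 4 were below and 2 above 0 on both arrays. Those below were 2 of 5 on version A, against 30.1% of all probes, and 2 of 3 on version B, against 30.6%. Those above were 2 of 5 on version A, against 30.4%, and 0 of 3 on version B, against 29.7%. APRR1, the Arabidopsis clock protein also known as TOC1, was the description of a probe on each version. MZ00009579 on version A had 388 and 532 with nitrate, against 764 and 782 in control roots. Its log2 ratio was -0.83 ± 0.09 (SD, n = 2; limma adjusted p = 0.312, 95% confidence interval -1.36 to -0.30), and -0.67 with median centring. MZ00051415 on version B had 479 and 1092 with nitrate, against 836 and 960 in control roots, and log2 ratios of -0.88 and -0.25 (limma adjusted p = 0.395), with a mean of -0.57 after loess and -0.33 with median centring. For MZ00051415 nitrate was the dimmer dye in replicate 1 and the brighter in replicate 2. Its log2 ratio in replicate 1 is close to that of MZ00009579. MZ00006952 on version B had 1507 and 1824 with nitrate, against 3005 and 1558 in control roots, at -0.46 ± 0.45. The 5 putative pseudo-response regulators ranged in mean log2 ratio from -0.29 (MZ00015603) to 0.32 (MZ00007761), where MZ00015603 was at -0.70 with median centring. After loess MZ00003864 was at -0.18, MZ00038613 at 0.13 and MZ00015604 at 0.15, and with median centring they were at 0.04, 0.39 and 0.05. All 8 pseudo-response regulator probes had a lower log2 ratio in replicate 1 than in replicate 2. This was not particular to them, since the median over all 45 members was also lower in replicate 1 (0.10, against 0.33). The share of all probes with that direction was not computed.

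The phosphate starvation regulators were above 0 on both arrays of version A, as were 30.4% of all its probes. MZ00000944 had 25908 and 38280 with nitrate, against 16341 and 23991 in control roots. Its log2 ratio was 1.06 in replicate 1 and 0.98 in replicate 2, or 1.02 ± 0.06 (SD, n = 2; limma adjusted p = 0.266, 95% confidence interval 0.49 to 1.55), and 0.62 with median centring. MZ00019590 had 1681 and 3057 with nitrate, against 1046 and 1323 in control roots, at 0.84 ± 0.26 (limma adjusted p = 0.312).

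**Figure D3:**
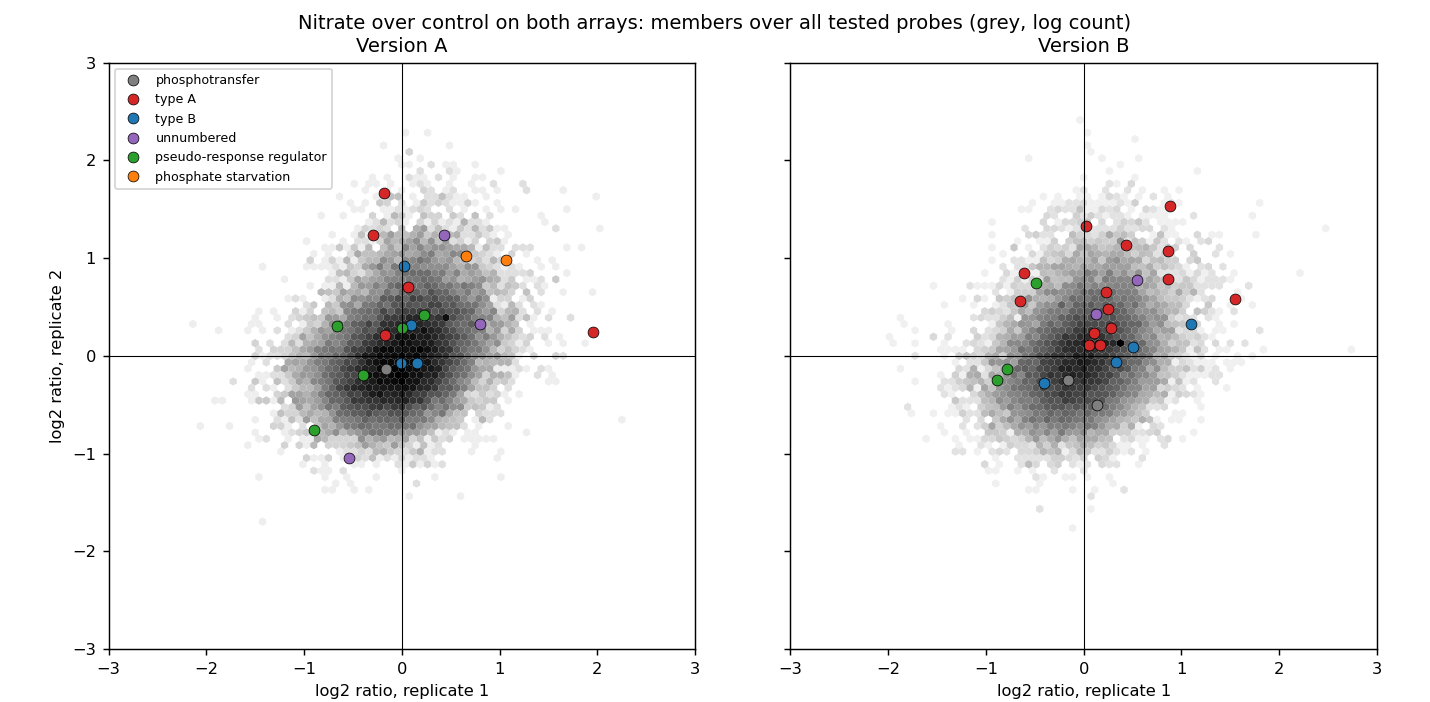
Log2 ratio of nitrate over control in replicate 1 (x axis) and replicate 2 (y axis) on version A (left) and version B (right), with all tested probes in grey (darker for more probes, on a log scale) and members coloured by role. Members on version B lie mostly in the upper right quadrant (16 of 25, against 29.7% of all tested probes). Of the response regulator 7 probes 2 lie far right, while several response regulator 6 probes lie far up.

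Genes upstream and around the relay were counted from lists of description patterns. The pattern for receptors and histidine kinases took 46 tested probes (25 of version A, 21 of version B). None was described as a cytokinin receptor. They were described as histidine kinases, ethylene receptors, phytochromes or, for 5 probes, by other names such as suppressors of phytochrome A. None passed limma's test over all probes (smallest adjusted p = 0.0936). Unadjusted, 11 of the 25 on version A and 6 of the 21 on version B had a limma p under 0.05 with a higher ratio, against 7.55% and 7.64% of all probes, and 0 with a lower one. Of the 17, 10 were among the 20 described as histidine kinases, 2 among the 9 ethylene receptors and 5 among the 12 phytochromes. The 20 mix probes named maize histidine kinase 1, 2 or 3 with others described from rice or Arabidopsis proteins. Of the maize-named probes only MZ00000040, MZ00033981 and MZ00040805 were among the 10, and all others of the 10 were described from rice or Arabidopsis. Over all 46 the highest was a putative histidine kinase (MZ00000020), whose log2 ratio averaged 1.84 ± 0.04 (SD, n = 2; limma adjusted p = 0.141). The lowest of the 46 was histidine kinase 2 (MZ00000184) with -0.40 ± 0.41.

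Cytokinin synthesis was represented by 3 tested probes, all without a limma p under 0.05, from a tRNA isopentenyltransferase (MZ00007744) at -0.22 ± 0.32 (SD, n = 2) to a cytokinin synthase (MZ00050985) at 0.25 ± 0.20. Among 16 probes for cytokinin breakdown and conjugation the median log2 ratio was 0.0004. An unadjusted limma p under 0.05 with a higher ratio was reached by 1 of 6 on version A, against 7.55% of all probes. On version B it was reached by 0 of 10, against 7.64%. The 1 probe was cytokinin oxidase 2 (MZ00031342) at 1.35 ± 0.30, with a limma adjusted p of 0.197. The lowest of the 16 was a putative cytokinin oxidase (MZ00023211) at -0.52 ± 0.09. Of the other 4 probes naming cytokinin, a putative cytokinin-regulated kinase (MZ00051777) was lowest at -0.63 ± 0.33 and another (MZ00052210) highest at 0.07 ± 0.14. No probe matched the pattern for GARP DNA-binding proteins. The 6 other clock probes, all described as timing of CAB expression 1 or similar, had a median of -0.43. Below 0 on both arrays were 2 of 5 on version A, against 30.1% of all probes, and 0 of 1 on version B, against 30.6%. Above 0 on both were 0, against 30.4% and 29.7%. These 6 probes ranged from -0.78 ± 0.45 (MZ00030218, limma adjusted p = 0.356) to -0.07 ± 0.03 (MZ00004219). Their median was -0.81 in replicate 1 and 0.02 in replicate 2.

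**Figure D4:**
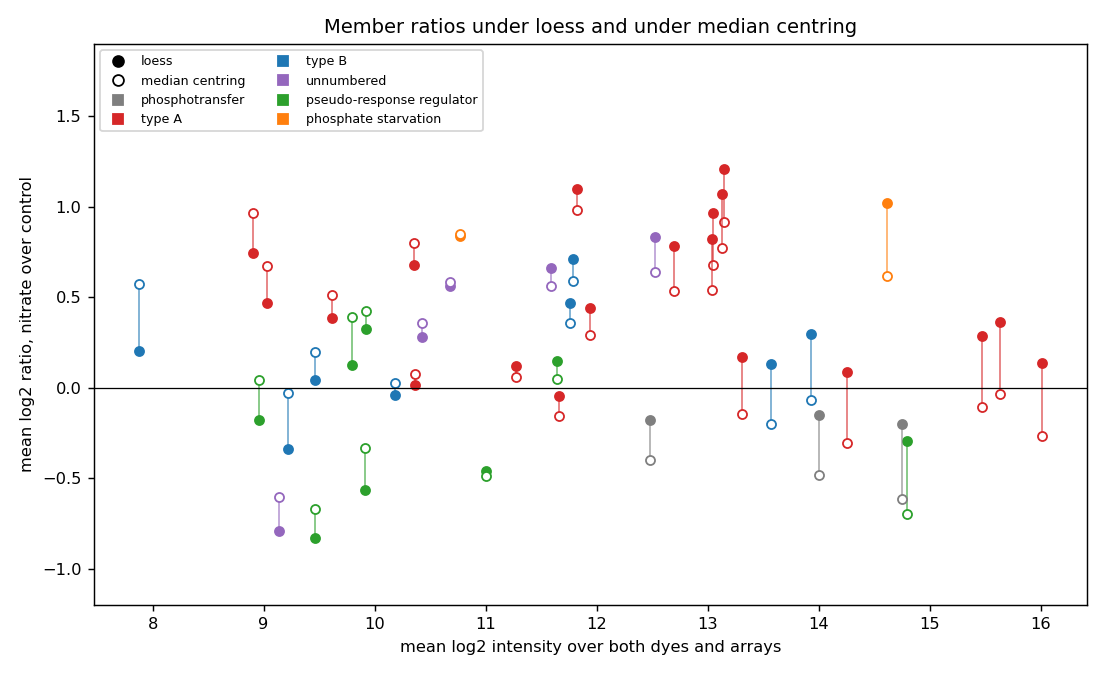
Mean log2 ratio of nitrate over control (y axis) against mean log2 intensity over both dyes and arrays (x axis) for the 45 members, after loess (filled) and after median centring (open), coloured by role. The 15 members with a mean log2 intensity of at least 13 were lower by 0.28 to 0.41 with median centring, and 7 of the 9 members whose sign turned are among them.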

How the data were processed

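Nitrate (Cy3) and control (Cy5) RNA was measured on 4 arrays of 32448 spots in 48 blocks. The deposited intensity columns hold whole numbers with some values below 0, so the authors had subtracted a background. How they did so is not given in the sources used here. Per the file headers, the ratio column deposited is nitrate over control, and its median was between 0.996 and 1.01, so it had been normalized. It equals the series value table on 100% of spots. Scanner and software are not given in the sources used here.

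From the intensities, log2 ratios were computed in R 4.3.3 (limma 3.58.1) with normexp (offset 50) and loess (span 0.3) within each array. Control spots and spots flagged B (4 to 10 per array, read as bad) had weight 0 and were not tested. A probe was tested when at least 1 dye was above 95% of the buffer and blank spots on both arrays. Per version, lmFit and eBayes tested the mean log2 ratio against 0, with 1 residual degree of freedom and Benjamini-Hochberg adjustment over all its tested probes. A value at 99% or more of its channel's maximum on that array was read as saturated. The fit was run on simulated data with independent noise, no dye or intensity bias, and shifts larger than any member's mean log2 ratio. That run therefore does not show how well effects of the members' size are found. All members and the highest and lowest probe of each pathway list are named. Members and lists were chosen with earlier results of these data known. The alternatives were other background corrections, normalizations, filters and priors, the deposited ratios, and leaving out a replicate. Limma's p-values and confidence intervals rest on a variance that combines the spread between a probe's arrays with a prior taken over all probes. The prior had 5.77 degrees of freedom on version A and 8.27 on version B, against 1 from the probe itself. They therefore need not follow the SD printed beside them. The spread between these arrays may in part be technical. No member's oligonucleotide sequence is shown.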

Additional observations from a re-analysis of the deposited data

How the results depend on the processing

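No member passed an adjusted p of 0.05 under any of the 10 alternatives that used both arrays. These included a prior fitted by maximum likelihood and a trended robust prior. The smallest adjusted p of a member was 0.0667. Few probes of any kind passed. Version B had at most 71 of 24748, with the trended robust prior. Version A had at most 8 of 28374, with print-tip loess. With plain background subtraction, the deposited ratio or the maximum-likelihood prior, no probe of either version passed. The lack of passing members is therefore not particular to them. The other filters and priors left each member's log2 ratio as it was, so under them only its adjusted p could change. Of 450 values of single members under these alternatives, 437 kept the direction and side of the threshold of the reported value. The other 13, from 11 members, changed sign. With median centring these were MZ00003864 (0.0421), MZ00015785 (0.0244), MZ00037873 (-0.31), MZ00040804 (-0.0345), MZ00042045 (-0.27, saturated, so no exact ratio), MZ00042277 (-0.0677), MZ00042381 (-0.14), MZ00042659 (-0.10) and MZ00044403 (-0.20). MZ00004630 was at -0.0038 with print-tip loess and -0.0046 with the deposited ratio, and MZ00044260 at -0.0079 and -0.0231. Median centring also gave 10 members above and 9 below 0 on both arrays of version B and a median of -0.0306, against 16, 4 and 0.28 after loess. Over all tested probes of version B the median was -0.0384 with median centring. Under the alternatives, the shares of all probes above 0, below 0 or at least 2-fold different were not computed. Leaving out the saturated probe, an alternative chosen after seeing the data, gave 15, 4 and 0.28 over 24 members. Loess removes a trend of the ratio with intensity that median centring keeps. Which of them is nearer the biology was not tested.

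With a single array in place of both, the count of members at least 2-fold different was between 2 and 5 on version A and between 2 and 4 for version B (0 with both arrays). Members below 0 numbered 6 to 9 for version A and 6 to 7 for version B. These counts ask for 1 array in either direction, while the count of 0 asks for the same direction on both. The shares of all probes on a single array were not computed. The median over all tested probes was between -0.0079 and 0.0067 on the single arrays. The median over members was 0.3127 without replicate 1 and 0.0113 without replicate 2 for version A, and 0.43 and 0.16 for version B. Each log2 ratio already pairs the nitrate and control RNA of a replicate on 1 array. Beyond that, no paired analysis was possible because the replicate number as a further block would leave no residual degree of freedom. Arrays without replicate dye swaps and with 2 replicates limit all values, and MZ00042045 is further limited by saturation.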
